A study of Mus musculus with 38 samples.

Results

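The long noncoding RNAs (lncRNAs) of mouse oocytes and early embryos were followed in the non-polysome (NP) and polysome (P) fractions of 36 libraries, by Scarce Sample Polysome profiling (SSP-profiling). They are the genes that the deposited FPKM table (fragments scaled to the exon length of the gene and to the number of mapped fragments) lists as lincRNA, antisense RNA or lncRNA, without Gas5 and the Snhg genes, at 0.1 FPKM or more as a geometric mean of the 36 libraries. Of 2662 such genes in a table of 23125, 337 reached that level, and the 300 with the highest geometric mean were kept. They comprised 175 lincRNAs, 112 antisense RNAs and 13 RNAs of bidirectional promoters. The members were chosen by their level over both fractions, so that level is a description and the difference between the fractions was not used. The last members inside the limit were Gm42836 and Gm8817, both at 0.1221 FPKM, and the first outside were AC160562.2 at 0.1214 FPKM and 6330410L21Rik at 0.121 FPKM.

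All oocytes and embryos came from wild-type, hormone-stimulated ICR mice at least 6 weeks old. The 6 stages were germinal vesicle (GV) oocytes, held in prophase by IBMX until collection, MII oocytes matured in culture for 12 h, interphase zygotes with pronuclei, metaphase zygotes (zygote M), and two-cell embryos in interphase or in metaphase (two-cell M). The metaphase zygotes and metaphase two-cell embryos were obtained with 10 µM nocodazole, which blocks the spindle, so M-phase and drug cannot be told apart at those stages. Cells were treated with cycloheximide, which holds ribosomes on RNA, and lysates were separated on sucrose gradients into 10 fractions, of which the lightest 5 were pooled as NP and the heaviest 5 as P. Each stage had 3 libraries of each fraction, lettered A, B and C (B, C and D for zygotes). How many cells and animals stand behind each library is not given in the labels, so p-values measure the spread between these libraries. In the fit with all libraries that spread was pooled over the 12 groups, so the p-value of a stage does not measure the spread at that stage alone.

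An lncRNA is transcribed and processed much like an mRNA but carries no long conserved reading frame. Many stay in the nucleus, while others are exported and can be bound by ribosomes, sometimes on a short open reading frame (ORF). Oocytes store large amounts of maternal RNA, among it many lncRNAs, transcription is silent in the fully grown oocyte, and the embryo starts its own transcription between the zygote and the two-cell stage. RNA can also enter heavy gradient fractions in particles without ribosomes, and the P libraries do not separate these from polysomes. Most of the 300 lncRNAs have only a catalogue name and no assigned function.

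The oocyte markers Gdf9, Bmp15, Zp1, Zp2, Zp3, Ooep, Nlrp5, Padi6, Mos and Zar1 were each above the 0.01 FPKM floor of the table in at least 1 library of every group, with summed levels from 6920 to 8670 FPKM in GV NP libraries and from 28.5 to 128 FPKM in two-cell M NP libraries. The cumulus and granulosa markers, of which 9 were in the table, summed to at most 0.515 FPKM outside the two-cell and two-cell M libraries, where 1 NP library of two-cell embryos reached 15 FPKM. The estimated depth was 8490000 to 26660000 fragments per library, lowest in a two-cell M NP library, and lncRNAs took 1.74% to 7.61% of the summed FPKM. Between replicates, log2 levels of the lncRNAs correlated least in two-cell NP (r 0.507 to 0.568 across genes, which are not independent) and most in zygote P (r 0.938 to 0.955).

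The 3 most abundant lncRNAs were Gm38025, Gm37724 and Gm10076, with geometric means of 375.5, 296.9 and 275.1 FPKM. Gm10076 lies at chr14:105681828-105682211 on the plus strand (GRCm38), has 1 exon and overlaps no other gene of the table. Its RNA is 99.5% identical to Rpl41, which encodes the smallest protein of the large ribosomal subunit, over 383 of its 384 nt. Its longest ORF, 25 codons before the stop, and the same stretch of the Rpl41 transcript are shown with the start and stop codons in capitals, because they carry 0 differences and reads from both genes cannot be told apart there.
Gm10076: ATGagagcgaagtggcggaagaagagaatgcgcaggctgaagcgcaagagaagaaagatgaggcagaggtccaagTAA
Rpl41: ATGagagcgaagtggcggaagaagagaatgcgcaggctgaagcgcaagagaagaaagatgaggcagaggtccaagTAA

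Gm10076 was lower in P than in NP. In GV oocytes the NP libraries A, B and C had 715, 603 and 654 FPKM and the P libraries 222, 380 and 103 FPKM. In two-cell M embryos NP had 15000, 17100 and 10700 FPKM against 6200, 4680 and 3000 FPKM in P. The fractions did not overlap at 5 of the 6 stages, zygote M being the exception. The level itself moved far over development, from 8.81 ± 0.624 FPKM in zygote P to 4620 ± 1600 FPKM in two-cell M P (mean ± SD, n = 3). Averaged over the 6 stages with equal weight, P minus NP was -1.53 on the log2 scale (SE 0.17, limma with Benjamini-Hochberg adjustment over all 7967 genes tested, adjusted p = 2.45e-07). Rpl41 itself differed by -1.49, and by stage the pair read -1.67 and -1.70 in GV, -1.48 and -1.65 in MII, -1.86 and -1.71 in zygotes, -0.78 and -0.78 in zygote M, -1.72 and -1.73 in interphase two-cell embryos, and -1.66 and -1.35 in two-cell M.

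Gm38025 and Gm37724 had the opposite pattern. Gm38025, at chr3:31341012-31345280 on the plus strand, read 464, 502 and 480 FPKM in zygote NP and 903, 953 and 779 FPKM in zygote P. Gm37724, at chr1:33065130-33066350 on the plus strand, read 23.4, 7.74 and 53.8 FPKM in GV NP and 125, 142 and 221 FPKM in GV P. Both were above NP in every P library of GV, zygote, zygote M and two-cell, and overlapped in MII and two-cell M. Averaged over the stages Gm37724 was higher in P by 1.47 (SE 0.30, limma adjusted p = 5.51e-04), which passed both thresholds of a call, an adjusted p under 0.05 and more than a 2-fold change. Gm38025 was higher by 0.96 (SE 0.17, limma adjusted p = 1.72e-04), short of that fold, and was called, at up to 1.08, without two-cell M NP library C, GV NP library C, two-cell P library B, two-cell M P library B or MII P library A. Gm38025 is 95.9% identical to the protein-coding gene Ccdc82 over 1585 nt, and Gm37724 is 95.6% identical to Gm20826 over 1221 nt, yet both coding genes were listed at only 0.0267 to 1.25 FPKM in group means.

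**Figure D1:**
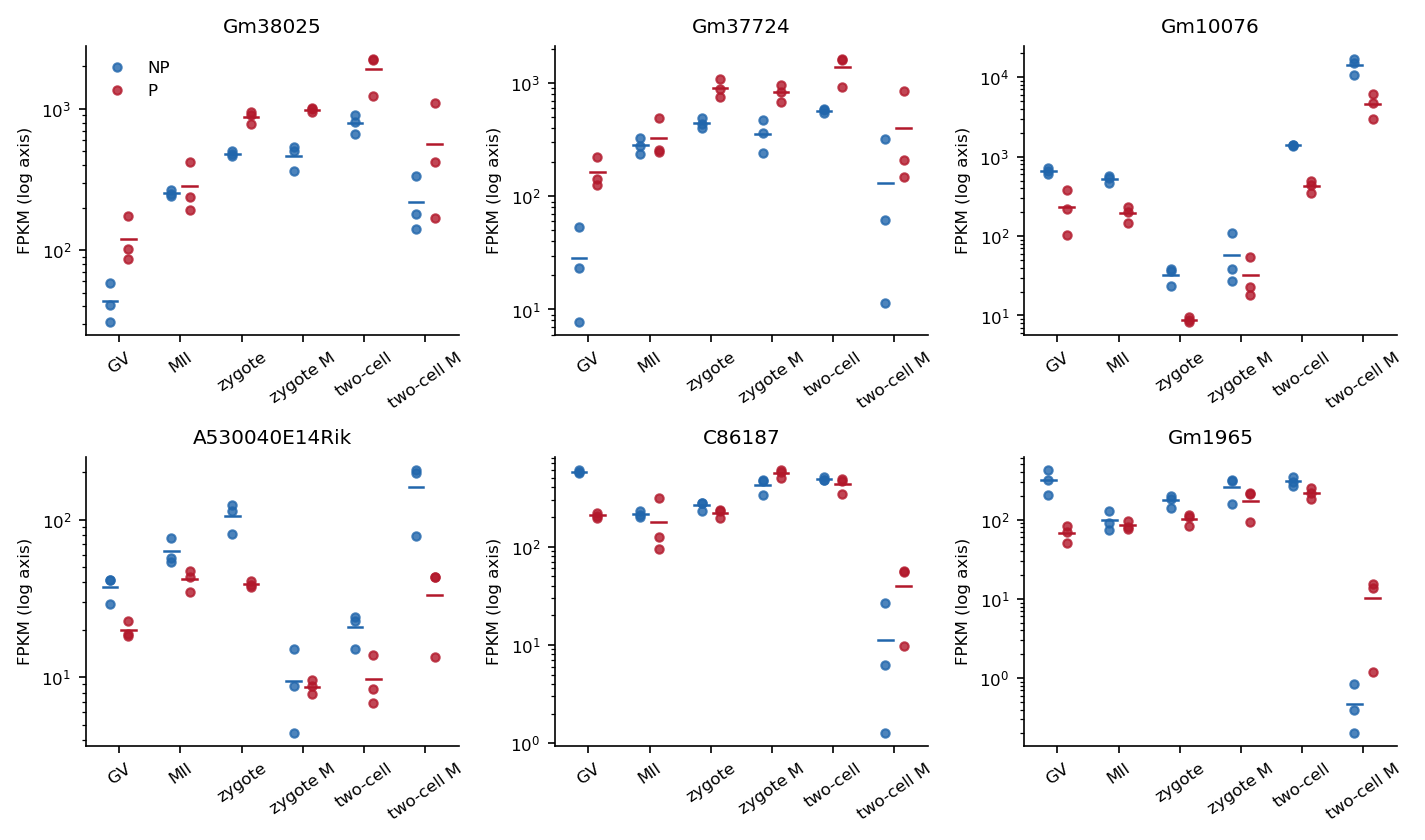
FPKM (log axis) of 6 abundant lncRNAs in each library by stage, NP in blue and P in red, with bars at the mean of 3 libraries. Gm38025 and Gm37724 lie higher in P at GV, zygote, zygote M and two-cell, Gm10076 and A530040E14Rik lie lower in P at 5 of 6 stages, and C86187 and Gm1965 fall in two-cell M.

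Among the other 7 of the 10 most abundant lncRNAs, 1 was called on the average over stages. A530040E14Rik, an antisense RNA at chr1:85105946-85114035 on the plus strand that shares 343 exon bases with C130026I21Rik, was lower in P by 1.05 on the log2 scale (difference -1.05, SE 0.19, limma adjusted p = 1.52e-04). Its call was lost without zygote M NP library B or two-cell M P library B, where the difference fell short of 2-fold, the smallest value being -0.95. In zygotes it read 123, 80.5 and 113 FPKM in NP and 41.0, 38.3 and 37.2 FPKM in P. Its fractions overlapped in zygote M only. C86187 was lower in P in GV (561, 568 and 605 FPKM in NP, 219, 197 and 205 FPKM in P) and its average difference was 0.07. Gm1965 averaged -0.05, 1700018B24Rik -0.50, Gm43269 -0.15, Gm839 0.28 and Gm11827 1.01 (limma adjusted p = 0.0794 for Gm11827), none of them called. Gm11827 was called without two-cell M NP library A (1.44, limma adjusted p = 3.41e-07), which read 19.5 FPKM where libraries B and C read 0.122 and 0.0657 FPKM.

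Averaged over the 6 stages, 46 of the 300 lncRNAs (15.3%) were called higher in P, where 16.3% of all 7967 genes tested were, and 20 (6.67%) were called lower in P, where 8.66% of all genes were. With all libraries the shares of lncRNAs called were near the background in both directions. The counts moved when the libraries of 1 letter were left out at every stage. Without letter B 29 were called higher, where 10.7% of all genes were, and the count called lower was 12 without letter A, where 6.9% of all genes were, and 9 without letter C, where 7.04% were. The median lncRNA difference was 0.61, that of all genes 0.34 and that of 6400 protein-coding genes 0.43, and 204 of the 300 were above 0. Scaling bears on this balance. After quantile normalization of the libraries the median over all genes moved from 0.34 to -0.01, the lncRNA median to 0.19, and the calls split into 36 higher (12%, where 12.9% of all genes were) and 35 lower (11.7%, where 15.4% of all genes were), 50.7% higher in place of 69.7%. Without the 6 two-cell M libraries 39 were called higher, where 14.6% of all genes were, 36 of them shared with the 46, and 19 lower, where 10.4% of all genes were, 18 of them shared with the 20.

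The ORFs of 5 lncRNAs called on this average are shown, the start and stop codons in capitals, for 3 that were higher in P and 2 that were lower. Gm13205 (chr4:148947492-148948914, minus strand) is antisense to Casz1, Gm16144 (chr9:69477029-69479598, minus strand) is antisense to Anxa2, and AV356131 (chr7:116443575-116444324, plus strand) comes from a bidirectional promoter. Gm31881 (chr3:152106439-152107383, plus strand) is antisense to Gipc2, and Gm11381 (chr13:32379907-32383688, minus strand) overlaps no gene of the table. Each is the longest ATG-started frame of the transcript and says nothing of its use. Libraries did not mark strand, so where an antisense RNA shares exon bases with its partner the reads of both cannot be told apart.
Gm13205: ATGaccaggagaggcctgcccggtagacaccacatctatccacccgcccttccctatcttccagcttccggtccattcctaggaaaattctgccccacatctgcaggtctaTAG
Gm16144: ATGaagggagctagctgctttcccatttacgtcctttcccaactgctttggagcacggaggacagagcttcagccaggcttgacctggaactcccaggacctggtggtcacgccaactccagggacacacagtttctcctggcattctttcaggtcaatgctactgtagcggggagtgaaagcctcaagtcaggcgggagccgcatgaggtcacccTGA
AV356131: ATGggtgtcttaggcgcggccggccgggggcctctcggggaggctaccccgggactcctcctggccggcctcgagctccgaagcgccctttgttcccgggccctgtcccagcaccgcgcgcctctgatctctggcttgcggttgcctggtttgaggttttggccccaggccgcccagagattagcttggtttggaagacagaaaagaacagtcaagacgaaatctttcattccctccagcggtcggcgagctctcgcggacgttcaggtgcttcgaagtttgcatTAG
Gm31881: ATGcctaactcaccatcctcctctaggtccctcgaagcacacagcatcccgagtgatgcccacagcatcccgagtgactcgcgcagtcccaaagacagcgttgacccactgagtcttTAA
Gm11381: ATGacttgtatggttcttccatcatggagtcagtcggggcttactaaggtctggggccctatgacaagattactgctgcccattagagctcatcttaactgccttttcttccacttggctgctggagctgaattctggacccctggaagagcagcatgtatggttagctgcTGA

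Gm13205 had the largest average difference among those called higher with a mean of at least 1 FPKM in the higher fraction, 3.96 (SE 0.55, limma adjusted p = 5.69e-06). In two-cell embryos it was at the 0.01 FPKM floor, where the table puts a gene with no assigned fragment, in all 3 NP libraries and read 4.47, 1.45 and 2.95 FPKM in P. In zygote M the 3 NP libraries were again at the floor and P read 1.87, 0.61 and 1.55 FPKM. In zygotes the fractions overlapped, with 2.04, 3.37 and 2.70 FPKM in NP and 2.26, 2.21 and 3.60 FPKM in P. A difference against a group at the floor is set by the 0.01 FPKM offset and is neither an estimate of fold nor a bound on it. This holds for every log2 difference below in which a fraction is said to be at the floor.

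Gm16144 averaged 3.60 (SE 0.86, limma adjusted p = 0.00275), a value that the 0.01 FPKM offset sets in part. It was at the floor in every NP library and in P library B of two-cell M. It was also at the floor in two-cell NP libraries B and C and GV NP libraries A and B. It read 0.0578, 1.51 and 3.56 FPKM in MII NP and 5.57, 4.89 and 6.73 FPKM in MII P, and 7, 9.20 and 13 FPKM in zygote NP and 14.0, 18.8 and 17.8 FPKM in zygote P. These were the 2 stages at which its fractions did not overlap. AV356131 averaged 3.01 (SE 0.82, limma adjusted p = 0.00756), with two-cell M NP at the floor in 3 of 3 libraries and 6.32, 8.80 and 17.1 FPKM in P, while at the zygote stage every P library was below every NP library. Gm15728 averaged 3.67, Gm32939 3.27 and Gm17518 2.97, and all 3 were at the floor in every two-cell NP library. Each of these 6 calls remained in all 36 fits that left out 1 library.

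Of those called lower in P, Gm31881 led with an average of -2.36 (SE 0.53, limma adjusted p = 0.00154). It read 2.39, 1.5 and 2.04 FPKM in MII NP and 0.125, 0.265 and 0.31 FPKM in MII P. It shares 221 exon bases with Gipc2, which averaged -1.69, and reads of both cannot be told apart there. Gm11381 averaged -1.62 (SE 0.44, limma adjusted p = 0.00754) and read 77.3, 64.8 and 68.3 FPKM in GV NP and 18.8, 27.4 and 7.60 FPKM in GV P. In zygote M its fractions overlapped, at 56.5, 84.2 and 47.4 FPKM in NP and 65.0, 102 and 42.9 FPKM in P. The calls of Gm31881 and Gm11381 remained in all 36 fits without 1 library. Those of C230057A21Rik (-1.86, limma adjusted p = 0.0318), Gm15629 (-1.62, adjusted p = 0.0327) and AC163667.1 (-1.61, adjusted p = 0.0298) did not. C230057A21Rik lost its call without MII NP library A or C, GV NP library B, two-cell P library B or zygote P library C (adjusted p up to 0.0561), Gm15629 without GV P library C (0.0523) and AC163667.1 without zygote NP library D (0.0523).

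**Figure D2:**
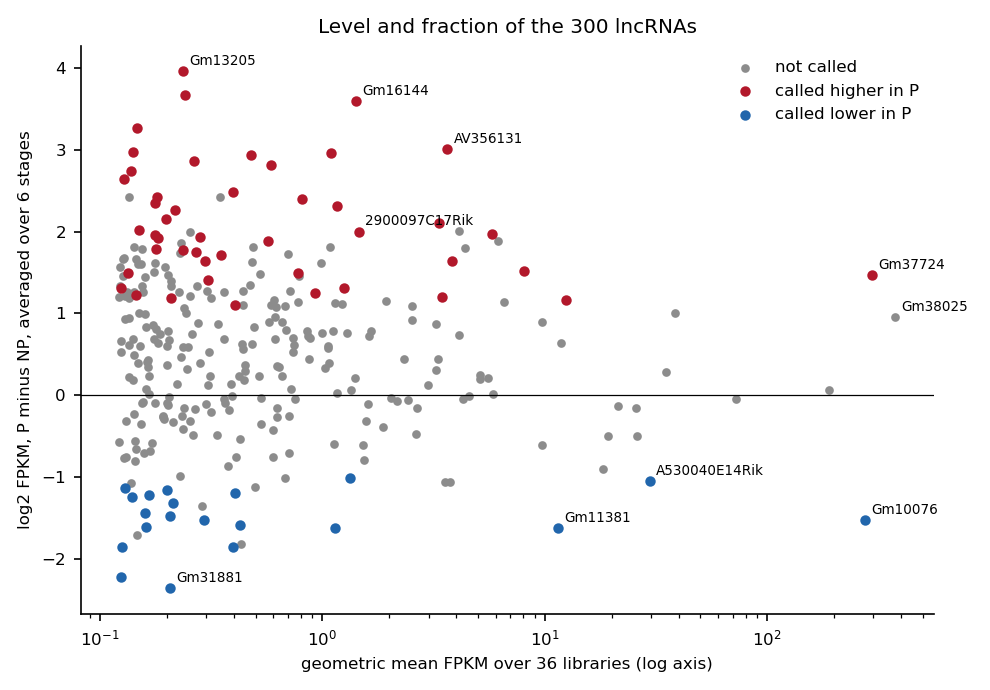
Average P minus NP difference of each of the 300 lncRNAs over 6 stages (log2 FPKM, vertical axis) against its geometric mean FPKM over 36 libraries (log axis). The 46 called higher in P are red and the 20 called lower in P are blue, and calls occur from the lowest levels to Gm37724 and Gm10076 near 300 FPKM.

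**Figure D3:**
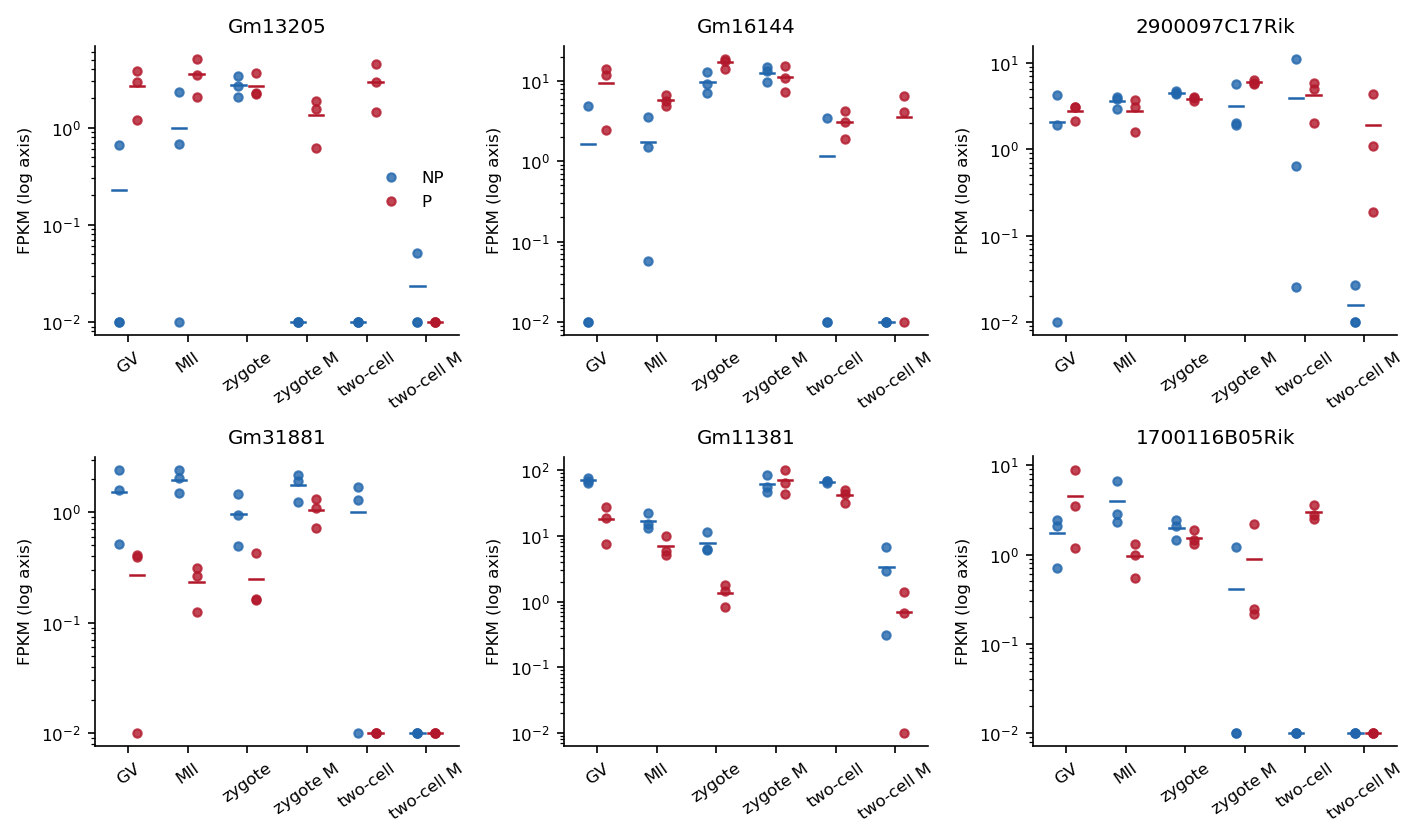
FPKM (log axis) of 6 lncRNAs in each library by stage, NP in blue and P in red, with bars at the mean of 3 libraries and 0.01 FPKM as the floor of the table. Gm13205 is at the floor in every NP library of zygote M and two-cell, and Gm31881 is lower in P in GV, MII and zygote.

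Stage by stage, the median lncRNA was lower in P than in NP in MII (-0.54) and in zygotes (-0.38) and higher in P at the other stages. Its P minus NP difference was 0.82 in GV, 0.92 in zygote M, 1.02 in interphase two-cell embryos and 0.47 in two-cell M. In stage order, the medians over protein-coding genes were 0.60, 0.05, -0.16, 0.31, 0.42 and 0.53. With 0.1 FPKM added before the logarithm the lncRNA medians were 0.51, -0.46, -0.35, 0.59, 0.45 and 0.10. After quantile normalization they were 0.17, -0.64, -0.15, 0.57, 0.53 and -0.20, so that the two-cell M median changed sign with the scaling. In bulk fractions of this kind, a lower share of an RNA on polysomes and an RNA content that differs between fractions cannot be told apart.

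Values at the floor moved with these medians. In two-cell libraries 33.2% of the lncRNA values were at the floor in NP and 11.9% in P, in GV 17.9% and 6.33%, and in zygote M 16.3% and 5.44%. In MII the shares were 7.78% and 3.78%, in zygotes 3.11% and 2.89%, and in two-cell M 54.9% and 46.8%. The part of fragment depth and library complexity in the differences was not tested. Among the 77 lncRNAs whose geometric mean reached 1 FPKM the medians kept the same signs, at 0.57, -0.54, -0.40, 0.55, 0.72 and 1.02, and those of the 2517 protein-coding genes at that level were 0.52, -0.04, -0.31, 0.14, 0.10 and 0.62.

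**Figure D4:**
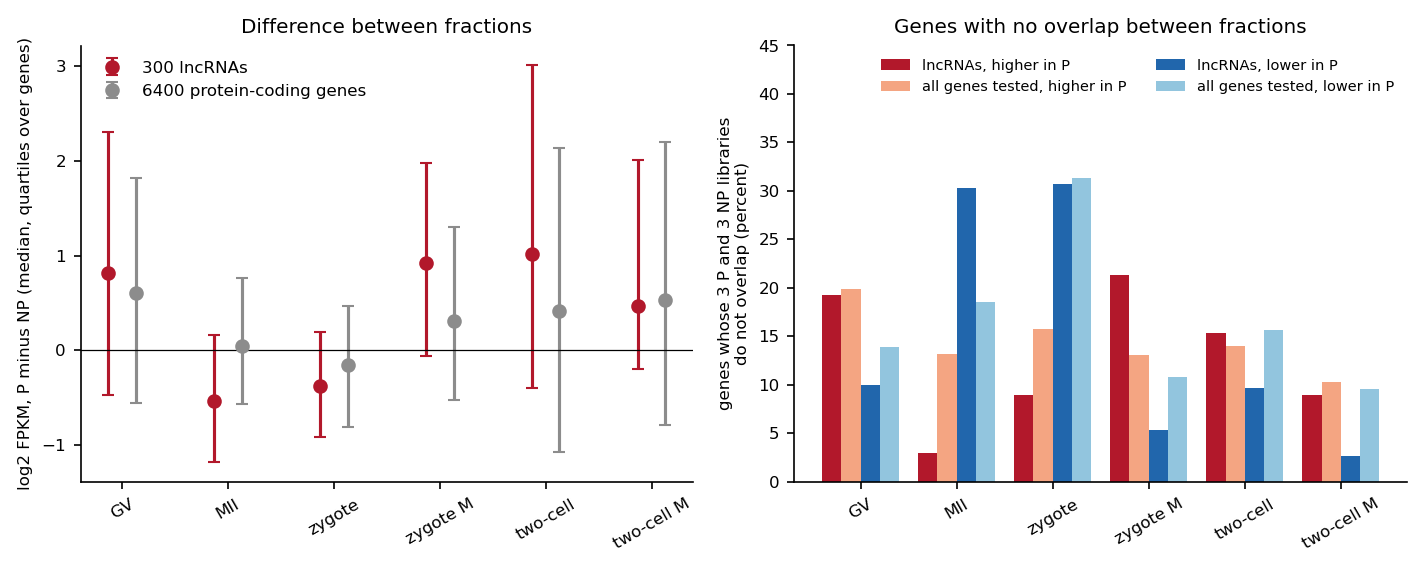
On the left, the median P minus NP difference (log2 FPKM) with quartiles over 300 lncRNAs and 6400 protein-coding genes at each stage. On the right, the percent of lncRNAs and of all genes tested whose 3 P and 3 NP libraries do not overlap, by direction: in MII 30.3% of lncRNAs were lower in P and 3% higher.

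The libraries of the fractions were also compared without a model. In MII 91 lncRNAs (30.3%) had all 3 P libraries below all 3 NP libraries and 9 (3%) had them above, where the shares over all genes were 18.5% and 13.2%. In zygotes 92 (30.7%) were lower and 27 (9%) higher, against 31.3% and 15.8% of all genes. In zygote M the balance was reversed, with 64 (21.3%) higher and 16 (5.33%) lower, against 13.1% and 10.8%. In GV 58 (19.3%) were higher and 30 (10%) lower, against 19.9% and 13.9%, in two-cell 46 (15.3%) and 29 (9.67%), against 14% and 15.7%, and in two-cell M 27 (9%) and 8 (2.67%), against 10.3% and 9.56%. Over the stages 61 lncRNAs (20.3%, against 15.8% of all genes) did so in both directions at different stages and 60 (20%, against 15.7%) at no stage.

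At 4 or more stages, 6 lncRNAs (2%) were higher in P without overlap, where 3.65% of all genes were, and 7 (2.33%) were lower, where 5.95% of all genes were. Higher in P were Gm16211 at 5 stages and A730082K24Rik, AC161763.1, Gm17484, Gm37724 and Gm38025 at 4. Gm16211 and Gm38025 are 96.0% identical over 795 nt and may share reads. Lower in P were Gm10069 at all 6 stages, Gm10076 and A530040E14Rik at 5, and D6Ertd474e, Gm11381, Gm17275 and Gm20234 at 4. Gm10069 and Gm17484 are named here after their values were seen. Gm10069, antisense to Pzp, read 0.882, 0.757 and 0.754 FPKM in GV NP and 0.146, 0.203 and 0.111 FPKM in GV P, and averaged -1.52 (SE 0.23, limma adjusted p = 1.82e-05). Gm17484, which lies against Bag4, read 0.153, 0.243 and 0.147 FPKM in zygote NP and 0.747, 0.944 and 1.11 FPKM in zygote P, and averaged 1.79 (SE 0.40, limma adjusted p = 0.00149). It shares 1042 exon bases with Bag4, which averaged 1.64, and reads of both cannot be told apart there.

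In GV oocytes 11 lncRNAs were called higher in P, where 2.61% of all genes were, and 4 lower, where 2.35% of all genes were. AV356131 was at the floor in NP libraries A and B and at 5.05 FPKM in C, and read 9.30, 24.2 and 9.59 FPKM in P (difference 7.34, limma adjusted p = 0.031). Gm13205 was at the floor in the same NP libraries and at 0.666 FPKM in C, and read 3.77, 2.95 and 1.2 FPKM in P (difference 5.87, limma adjusted p = 0.0104). GV NP library B held 91 lncRNAs at the floor, where A held 40 and C held 30. Lower in P were B930036N10Rik, antisense to Alyref2, with 115, 55.9 and 89.2 FPKM in NP and 8.40, 21.2 and 14.8 FPKM in P (difference -2.59, limma adjusted p = 0.0226), and Gm1965, with 315, 429 and 204 FPKM in NP and 69.7, 50.3 and 84.0 FPKM in P (difference -2.18, limma adjusted p = 0.0365).

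Fitted on the GV libraries alone, 3 were called higher and 4 lower, where 1.41% and 2.85% of all genes were, and quantile normalization gave 9 and 13, where 3.87% and 7.14% of all genes were called. With no minimum level 5 were called higher, where 1.64% of all genes were. The count called higher was 3 without letter A, where 0.477% of all genes were, 2 without letter B (0.59%) and 6 without letter D (1.69%), which only zygotes have. The GV counts also rested on single libraries. Here and below, counts from fits without 1 library carry no share over all genes. They do not show whether lncRNAs moved more than other genes. The number called higher was 0 without NP library B or P library A, 6 without P library B, 5 without P library C, 7 without zygote P library C and 21 without NP library C, and the number lower was 1 without NP library A, 2 without NP library B and 0 without P library A or P library C. AV356131 and Gm1965 kept their GV calls in 1 of the 6 fits without a GV library, that without NP library C, and Gm13205 and B930036N10Rik in 3. Gm13205 lost it without NP library A or B or P library A, and B930036N10Rik without NP library A or P library A or C.

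In MII 0 lncRNAs were called by limma in either direction, where 0.0502% of all genes were called higher and 0.703% lower in P. The number with an unadjusted p under 0.05 was 12 of 300, and 6.14% over all genes. Fitted on the MII libraries alone, 17 lncRNAs (5.67%) were called lower in MII, where 4.82% of all genes were, and with same-lettered P and NP libraries as a block 1 was, where 0.64% of all genes were. In zygotes 0 were called higher, where 0.0377% of all genes were, and 2 lower, where 1.34% of all genes were. The number with an unadjusted p under 0.05 was 24, and 7.38% over all genes. Fitted on the zygote libraries alone, 9 (3%) were called higher, where 4.47% of all genes were, and 39 (13%) lower, where 15.7% of all genes were. Of the 2 called with all libraries, 6330562C20Rik, which shares 144 exon bases with Cers2, read 2.05, 1.02 and 1.96 FPKM in NP and 0.237, 0.186 and 0.239 FPKM in P (difference -2.87, limma adjusted p = 0.0159). Gm10076, the other, read 38.3, 23.6 and 36 FPKM in NP and 8.26, 8.68 and 9.49 FPKM in P (difference -1.86, limma adjusted p = 0.0174). Neither was called without zygote NP library B or D or zygote P library B or C, when the count was 0, and the count was 4 without two-cell M NP library C.

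In zygote M 6 lncRNAs were called higher, where 1.43% of all genes were, and 0 lower, where 0.49% of all genes were. The number with an unadjusted p under 0.05 in either direction was 48, and 12.3% over all genes. After quantile normalization 3 were called higher and 4 lower, where 1.15% and 2.44% of all genes were, so the split by direction rests on the scaling. Gm13205 (difference 6.92, limma adjusted p = 0.00597) is described above. Gm26969, a lincRNA at chr14:62201915-62204352 on the minus strand, read 0.0284, 0.01 and 0.01 FPKM in NP and 1.10, 1.14 and 1.75 FPKM in P (difference 6.52, limma adjusted p = 0.0105). Both calls remained in all 6 fits without a zygote M library. The count of 6 was 2 without letter A, where 0.427% of all genes were called, and 12 without zygote M NP library C, and 2 were called lower without zygote M NP library B.

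In the fit with all libraries, two-cell embryos had the most calls, 33 higher in P, where 9.69% of all genes were, and 10 lower, where 6.38% of all genes were. In fits on 1 stage alone, zygotes had the most, as given above. Of the 33, 17 were at the floor in all 3 NP libraries and 2 in none. 1700116B05Rik, a lincRNA at chr16:50783409-50784091 on the plus strand, was at the floor in the 3 NP libraries and read 2.51, 3.63 and 2.77 FPKM in P (difference 8.20, limma adjusted p = 2.8e-05), although in MII oocytes it had been lower in P, at 0.541, 0.999 and 1.32 FPKM against 2.29, 2.87 and 6.76 FPKM. AC131117.1 read 0.01, 0.01 and 0.0404 FPKM in NP and 12.6, 7.25 and 2.29 FPKM in P (difference 8.54, limma adjusted p = 0.00243). Both remained in all 6 fits without a two-cell library.

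Of the 10 called lower in two-cell P, 8 were above the floor in every P library. C230057A21Rik read 2.54, 8.27 and 2.05 FPKM in NP and 1.09, 0.01 and 0.055 FPKM in P (difference -5.38, limma adjusted p = 0.0198), and its call was lost without NP library B, P library B or P library C. Gm5 read 11.7, 7.42 and 11.1 FPKM in NP and 0.736, 1.39 and 1.81 FPKM in P (difference -3.01, limma adjusted p = 0.0441), groups far apart, yet its call was lost in each of the 6 fits without a two-cell library (adjusted p 0.0634 to 0.145). The count called higher was 55 without NP library C, and the count called lower was 6 without P library B. Leaving out a letter at every stage gave 1 called lower without A, where 4.22% of all genes were, 4 without B (5.16%), 5 without C (4.1%) and 6 without D (5.32%). A fit of the two-cell libraries alone gave 19 and 3 calls, where 3.43% and 3.46% of all genes were called. With 0.1 FPKM added before the logarithm 16 were called lower, where 9.18% of all genes were. With no minimum level 6 were, where 4.88% of all genes were.

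In two-cell M 17 lncRNAs were called higher, where 9.7% of all genes were, and 6 lower, where 5.06% of all genes were. Fitted on the two-cell M libraries alone, 0 were called in either direction, where 0.0628% of all genes were called higher and 0.176% lower, and quantile normalization gave 10 higher and 5 lower, where 4.64% and 3.21% of all genes were called. AV356131 (difference 9.94, limma adjusted p = 9.96e-04) has been described. Gm29483, a lincRNA at chr1:92714234-92717202 on the minus strand, was at the floor in the 3 NP libraries and read 0.356, 5.55 and 1.19 FPKM in P (difference 7.06, limma adjusted p = 5.21e-05). Lower in P was Gm29290, with 89.3, 68.4 and 41.6 FPKM in NP and 16.2, 1.69 and 8.16 FPKM in P (difference -3.38, limma adjusted p = 0.0056). Gm17275, which lies against H3f3a, a histone H3.3 gene, and shares 638 exon bases with it, read 2.33, 2.23 and 0.874 FPKM in NP and 0.423, 0.372 and 0.126 FPKM in P (difference -2.61, limma adjusted p = 0.016). With all groups in the fit, the first 3 calls remained in all 6 fits without a two-cell M library, and that of Gm17275 was lost without NP library A or P library C. The count called higher was 10 without P library C, and the count called lower was 11 without NP library A or B and 2 without letter C, where 3.93% of all genes were. With 0.1 FPKM added before the logarithm the count called lower was 10, where 6.97% of all genes were.

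The passage from interphase to M-phase was compared by the difference of the P minus NP differences. From GV to MII 0 lncRNAs were called, where 0.163% of all genes were, with 35 at an unadjusted p under 0.05 (7.37% over all genes) and a median change of -1.30, against -0.59 over all genes. From zygote to zygote M 0 were called, where 0.289% of all genes were, with 33 at an unadjusted p under 0.05 (7.52% over all genes) and a median change of 1.21, against 0.60 over all genes. The count was 2 without GV NP library C and 4 without letter C (0.389% of all genes) for the first comparison, and at most 4, without zygote M NP library B, for the second. From two-cell to two-cell M 12 were called, where 5.75% of all genes were, with a median change of -0.23 against 0.21. The count was 6 with 0.1 FPKM added before the logarithm, where 4.79% of all genes were called. It was 19 without two-cell NP library B and 23 without letter B, where 7.84% of all genes were.

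Gm1965 changed between the 2 phases with no library at the floor. In two-cell embryos it read 270, 301 and 350 FPKM in NP and 249, 183 and 218 FPKM in P, and in two-cell M embryos 0.83, 0.397 and 0.202 FPKM in NP and 15.4, 1.18 and 13.9 FPKM in P. The level fell in both fractions and more so in NP, so P went from below NP to above it (change 4.47, SE 0.87, limma adjusted p = 0.00157). D830050J10Rik, an RNA of a bidirectional promoter, read 1.29, 1.06 and 1.57 FPKM in two-cell NP and 2.63, 1.38 and 2.23 FPKM in P, and in two-cell M it was at the floor in NP and at 1.77, 1.95 and 0.112 FPKM in P (change 5.54, limma adjusted p = 0.00329). In the other direction were AC093043.1 (change -9.06, limma adjusted p = 0.0188) and Gm13205 (change -8.85, limma adjusted p = 0.00427). Both were at the floor in two-cell NP, present in two-cell P, and at the floor in every two-cell M P library. In two-cell M NP both were also at the floor in libraries A and B and near it in library C. Both were thus hardly detected in either fraction of two-cell M, and their changes rest on the two-cell difference. Each of these 4 calls remained in all 12 fits without a library of these stages.

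By the F-test over the differences of all 6 stages, P against NP differed between stages for 19 lncRNAs, where 8.2% of all genes passed, for 30 without two-cell NP library C and for 11 without letter D, where 5.26% of all genes passed. Gm1965 (limma adjusted p = 3.75e-04), 1700116B05Rik (0.00127) and D830050J10Rik (0.00178) had the lowest p-values.

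Levels within a fraction moved with the stage for most lncRNAs. The stage effect passed the F-test (limma, adjusted p under 0.05) for 236 of the 300 in P, where 62.9% of all genes passed, and for 264 in NP, where 78.3% of all genes passed. Each gene was assigned to the stage of its highest mean log2 FPKM, a geometric mean that libraries at the floor of 0.01 FPKM pull down. In P that stage was zygote M for 84 lncRNAs (28%), and 11% of the protein-coding genes had it there. MII was highest for 49 (16.3%) in P, against 27.5% of the protein-coding genes. In NP it was MII for 73 (24.3%, against 24.7%) and the zygote for 79 (26.3%, against 23.4%). By the arithmetic mean of FPKM the stage was the same for 265 lncRNAs in P and 236 in NP. Zygote M then led in P for 78 (26%, against 10.5% of the protein-coding genes), while in NP MII led for 61 (20.3%, against 20.7%) and the zygote for 54 (18%, against 16.1%). AA545190 read 11.2, 7.94 and 10.9 FPKM in two-cell P and was at the floor in all 3 two-cell M P libraries. Its stage effect in P had a limma adjusted p of 1.52e-12 by the F-test. Of all lncRNA values, 46.8% were at the floor in two-cell M P, against 11.9% in two-cell P. In NP these shares were 54.9% and 33.2%. The part of such floor values in the fall of AA545190 and in the stage effects was not tested.

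**Figure D5:**
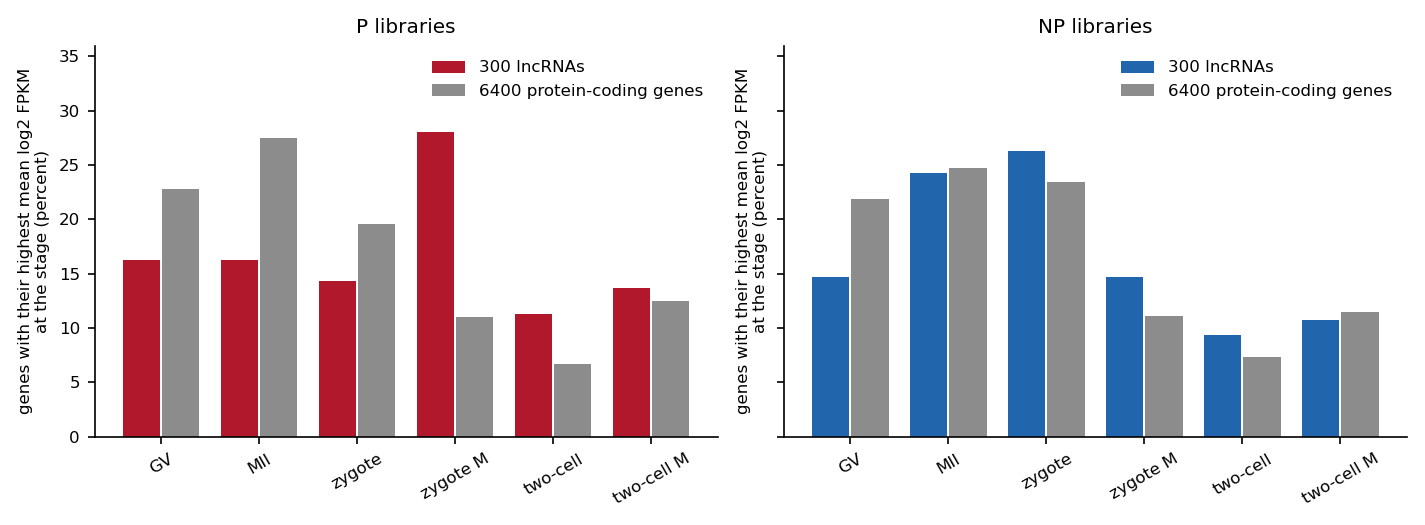
Percent of the 300 lncRNAs and of 6400 protein-coding genes whose highest mean log2 FPKM falls at each stage, for P libraries on the left and NP libraries on the right. In P, 28% of lncRNAs and 11% of protein-coding genes were highest at zygote M.

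A small group of lncRNAs was near the floor in oocytes and interphase zygotes and present in two-cell embryos, the period in which the embryonic genome becomes active. These were chosen after the values were seen, as lncRNAs with means under 0.2 FPKM in both fractions of GV, MII and zygote and at least 1 FPKM in a two-cell fraction, and are described without a test. There were 7, AC163667.1, F730035P03Rik, Gm29290, Gm33466, Gm43579, Gm45441 and Platr31, and 6 of them were lower in two-cell P with no overlap of the libraries, Gm43579 being the exception. The rule did not use zygote M, where AC163667.1 read 5.46, 0.03 and 0.0811 FPKM in NP (mean 1.86 FPKM) and the other 6 were at means of 0.01 to 0.254 FPKM in both fractions. The median difference of the 7 was -2.06 in interphase two-cell embryos and -0.75 in two-cell M. Among protein-coding genes 33 met the same rule, of which 32 had a lower mean log2 level in two-cell P (28 with no overlap), with a median of -2.32.

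F730035P03Rik, a lincRNA at chr7:99780001-99781539 on the minus strand, read 0.01 to 0.156 FPKM in every library of GV, MII, zygote and zygote M. In two-cell embryos it read 43.0, 46.7 and 17.2 FPKM in NP and 11.6, 8.73 and 7.39 FPKM in P, and in two-cell M 106, 53.7 and 62.9 FPKM in NP and 18.6, 12.4 and 31.2 FPKM in P. Every P library was below every NP library at both stages. Gm29290, at chr1:153939226-153941290 on the plus strand, read 48.8, 40.2 and 43.3 FPKM in two-cell NP and 4.84, 10.5 and 14.2 FPKM in two-cell P. AC163667.1 read 77.7, 16.5 and 56.1 FPKM in two-cell NP and 11.5, 4.32 and 5.38 FPKM in two-cell P.

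Of the lncRNAs with a known name that were listed for this tissue and for ribosome contact, 5 were members. The others on those lists were under 0.1 FPKM, not in the table or under another biotype. Dancr, at 0.0938 FPKM, Evx1os, at 0.0313 FPKM, and Lncenc1, at 0.0114 FPKM, were among those too low. The nuclear lncRNAs Malat1, Neat1 and Xist were not members either, with geometric means of 0.0905, 0.0192 and 0.0118 FPKM. Of the 16 nuclear or chromatin lncRNAs listed 0 were members. Of these 11 could have been, 3 being not in the table and 2 in it under another biotype. The shares of members were not compared between lists. 2900097C17Rik, also called Norad, is a cytoplasmic lncRNA that binds Pumilio proteins and lies at chr2:156388065-156392979 on the minus strand. It read 1.99, 1.91 and 5.72 FPKM in zygote M NP and 5.85, 5.75 and 6.27 FPKM in P, and in two-cell M 0.0267, 0.01 and 0.01 FPKM in NP and 0.188, 1.10 and 4.42 FPKM in P. At the zygote it was lower in P in every library, 3.59, 4 and 3.90 FPKM against 4.78, 4.46 and 4.32 FPKM. Its average difference was 2.00 (SE 0.65, limma adjusted p = 0.0234), called also in all 36 fits without 1 library. The 0.01 FPKM offset sets this value in part, since two-cell M NP libraries B and C were at the floor.

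The Norad transcript of 4915 nt holds 11 copies of the Pumilio motif TGTANATA, with N for any base, searched on the transcript strand only. The motif occurs in 34 of the 288 lncRNA transcripts that could be searched (11.8%), and Gm7292, whose transcript is 99.2% identical to Norad over 2537 nt, holds 9. A match is a description and not a bound site. The 240 nt of Norad with the most motifs, from position 2221 to 2460 of the transcript, are shown with the 3 motifs in capitals.
2900097C17Rik: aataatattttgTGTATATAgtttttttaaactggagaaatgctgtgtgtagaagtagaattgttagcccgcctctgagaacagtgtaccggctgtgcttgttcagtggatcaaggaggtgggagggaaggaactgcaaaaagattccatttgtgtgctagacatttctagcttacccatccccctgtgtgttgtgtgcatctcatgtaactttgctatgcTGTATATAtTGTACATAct

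Gm7292 is named for that identity, after its values were seen. It averaged 1.81 (SE 0.73, limma adjusted p = 0.0634), and reads of the pair may have been assigned to either. Tug1, a conserved lncRNA needed for male fertility, averaged 0.32 (SE 0.80, limma adjusted p = 0.8), with a sign that turns under other scalings. Epb41l4aos averaged 1.57 (SE 0.81, limma adjusted p = 0.147), and was called without two-cell NP library A (1.99, adjusted p = 0.0443). The pluripotency-associated Platr30, whose transcript is 99.7% identical to that of Gm17575 over 1934 nt so that reads may be shared, averaged -0.04 (SE 0.51, limma adjusted p = 0.963). In GV its libraries did not overlap, with 9.29, 6.49 and 2.70 FPKM in NP and 1.17, 0.85 and 1.30 FPKM in P. Platr31 averaged -0.80 (SE 0.25, limma adjusted p = 0.02), short of a 2-fold change, and read 1.74, 1.30 and 1.73 FPKM in two-cell NP and 0.251, 0.259 and 0.314 FPKM in two-cell P.

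The gene models, from GENCODE M21 on GRCm38, were found for 288 of the 300 lncRNAs. Their transcripts had a median length of 1094.5 nt and a median longest ORF of 219 nt. Across these 288 the average P minus NP difference had a Spearman rho of -0.03 with ORF length, 0.04 with transcript length, -0.20 with the number of exons and 0.27 with GC content. In MII rho was 0.28 with transcript length and 0.19 with ORF length, and in zygotes 0.23 and 0.08. In zygote M both were negative, at -0.15 and -0.16, and in GV, two-cell and two-cell M they lay between -0.05 and 0.04. The points share the libraries and their base composition, and most of these relations are weak.

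Overlap with other genes was counted, since the libraries do not mark strand. Of 150 that overlap no other gene of the table, 26 (17.3%) were called higher and 10 (6.67%) lower on the average over stages (median 0.54). The shares called over all genes were 16.3% and 8.66%. Of 131 that lie against a gene on the opposite strand only, 17 (13%) were called higher and 9 (6.87%) lower (median 0.63). Exon bases were shared with a protein-coding gene by 97. Of these, 15 (15.5%) were called higher and 10 (10.3%) lower, where 16.3% and 8.66% of all genes were. For 56 of these the partner was also tested, the medians were 0.65 for the lncRNAs and 0.61 for the partners, 42 pairs had the same sign, and rho across pairs was 0.47, with the shared reads of unstranded libraries in both values. By biotype, the 175 lincRNAs had 28 calls higher (16%) and 11 lower (6.29%), with a median of 0.53. The 112 antisense RNAs had 15 (13.4%) and 7 (6.25%), with a median of 0.70. The 13 RNAs of bidirectional promoters had 3 (23.1%) and 2 (15.4%), with a median of 0.69. The background for each is again the 16.3% and 8.66% of all genes.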

How the data were processed

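Polysome and non-polysome RNA of mouse oocytes and embryos was made into libraries with SMART-seq v4 and Nextera XT, which do not mark strand, and sequenced as paired 150-bp reads. The authors trimmed reads with Trim Galore 0.4.1, mapped them to GRCm38 with STAR 2.5.3a and deposited normalized FPKM values from Partek, none below 0.01, the value of genes without fragments. The 2 samples of zygote replicate A have no column and were not analysed here. From low FPKM steps, fragment depth was estimated at 8490000 to 26660000 per library, but only 42.0% to 53.9% of low values lay within 0.1 of a whole fragment, so FPKM values were used, with no count test.

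Members and lists were chosen with earlier results of these data known. The 7967 genes at a geometric mean of 0.1 FPKM or more were tested on log2 FPKM with limma 3.58.1 in R 4.3.3, with 12 group means, a trended prior and Benjamini-Hochberg adjustment. Calls needed an adjusted p under 0.05 and a change beyond 2-fold, the thresholds the study used. In the text a difference is P minus NP in log2 FPKM with a moderated SE and 24 residual degrees of freedom before moderation. Named genes were the 10 with the highest level, for each stage up to 2 called without overlap in each direction and with a mean of at least 1 FPKM in the higher fraction, 6 in each direction for the average, 2 in each direction for each interphase to M-phase change, the 3 with the lowest p in each F-test, and listed lncRNAs that were members. Transcripts and positions came from GENCODE M21, and copies from blastn 2.17.0 (at least 95% identity). Scripts were tested on data simulated from the fitted means and residual spread, with changes planted between P and NP in GV. Of 50 genes planted at a log2 difference of 4, 11 were called, and of 50 at 2, 3 were. At -4 and -2 the calls were 11 and 4 of 50. A gene that was not called may thus still differ between the fractions. Alternatives were log2(FPKM + 0.1), no minimum, quantile normalization, a replicate block, each letter or library left out, the libraries of 1 stage alone and members without overlap.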

Additional observations from a re-analysis of the deposited data

Results flagged for a closer look

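The P minus NP difference of 4 lncRNAs differed between two-cell and two-cell M embryos by an interaction test across all genes (limma with Benjamini-Hochberg adjustment). The changes were 5.54 for D830050J10Rik and 4.47 for Gm1965, where P rose relative to NP. They were -9.06 for AC093043.1 and -8.85 for Gm13205, where P fell to the floor of the table. In two-cell M the NP libraries of AC093043.1 and Gm13205 were also at or near the floor. The changes of AC093043.1, Gm13205 and D830050J10Rik involve a fraction at the floor, so their size is set by the offset of 0.01 FPKM. Over all 6 stages the F-test separated Gm1965 (adjusted p = 0.000375), 1700116B05Rik (adjusted p = 0.00127) and D830050J10Rik (adjusted p = 0.00178). Two-cell M libraries had 122 to 181 of the 300 lncRNAs at the floor, and the part of that in these changes was not tested.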

How the results depend on the processing

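Counts of lncRNAs called are given as higher and lower in P, with the share of all genes called under the same setting in parentheses. With log2(FPKM + 0.1) zygote had 1 (0.0628%) and 4 (1.61%), and the counts lower were 16 (9.18%) in two-cell, 10 (6.97%) in two-cell M and 13 (9%) on the average, with interphase to M-phase changes of 1 (0.377%) to MII, 1 (0.113%) to zygote M and 6 (4.79%) to two-cell M. With no minimum GV had 5 higher (1.64%) and two-cell 6 lower (4.88%). Quantile normalization gave 13 lower (7.14%) in GV, 1 lower (1.15%) in MII, 1 (0.389%) and 7 (2.44%) in zygote, 3 (1.15%) and 4 (2.44%) in zygote M, 10 higher (4.64%) in two-cell M, 35 lower (15.4%) on the average and 3 changes (0.615%) to zygote M. Fits on 1 stage alone gave 3 higher (1.41%) in GV, 17 lower (4.82%) in MII, 9 (4.47%) and 39 (15.7%) in zygote, 1 lower (0.439%) in zygote M, 19 (3.43%) and 3 (3.46%) in two-cell, and 0 (0.0628%) and 0 (0.176%) in two-cell M. Members overlapping no other gene, which are 150, were counted in the fit with all libraries. They gave 7 (2.61%) and 2 (2.35%) in GV, 1 lower (1.34%) in zygote and 2 higher (1.43%) in zygote M. Two-cell had 17 (9.69%) and 4 (6.38%), two-cell M 10 (9.7%) and 2 (5.06%), and the average 26 (16.3%) and 10 (8.66%). The cause of these shifts was not tested, beyond the smaller number of members in the last setting.

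Whether same-lettered P and NP libraries come from 1 gradient is not given in the labels. Their residual correlations were above 0 in 17 of 18 pairs and over 0.1 in 6 (highest 0.167), so the pairing was kept as an alternative. The replicate block gave 47 (16.5%) and 19 (9.31%) on the average and 1 lower (0.64%) in MII, and changed the other counts by less than 1.5 times. Leaving out a letter gave 2 to 10 higher (0.477% to 2.87%) and 0 to 3 lower (0.703% to 1.91%) in GV. It gave 0 to 1 lower in MII (0.0251% to 0.577%) and in zygote (0.54% to 0.966%), and 2 to 7 higher (0.427% to 1.34%) in zygote M. Two-cell had 30 to 41 (6.59% to 8.91%) and 1 to 6 (4.1% to 5.32%), and two-cell M 13 to 18 (6.01% to 9.54%) and 2 to 6 (2.9% to 5.18%). The average had 29 to 41 (10.7% to 12.5%) and 9 to 19 (6.9% to 7.98%). Letters A, B, C and D were each left out at every stage that has them. The F-test between stages gave 11 to 22 (5.26% to 7.78%), and the stage effect 182 to 228 in P (46.9% to 57.8%) and 235 to 256 in NP (64.3% to 73.6%). For the M-phase changes the counts were 0 to 4 for MII (0% to 0.389%), 0 to 3 for zygote M (0.113% to 0.339%) and 9 to 23 for two-cell M (4.59% to 7.84%).

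The average difference changed sign for Tug1 (-0.20 with the added 0.1, -0.51 with quantile normalization, -0.35 to 0.68 without a letter), Gm43269 (0.08 with the added 0.1, -0.66 to 0.24 without a letter), C86187 (-0.16 to 0.25), Gm1965 (-0.28 to 0.25) and Platr30 (-0.14 to 0.03), none of them called. By the arithmetic mean of FPKM, a choice made after seeing the data, 46 lncRNAs in place of 28 were highest in NP at two-cell, and the other 11 counts by stage and fraction stayed within 1.5 times.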
